A study of Mus musculus with 6 samples.

Results

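The prostaglandin pathway genes described here were 10 of the 55367 gene symbols in the deposited RNA-seq files, chosen by name: *Pla2g4a*, *Ptgs1*, *Ptgs2*, *Ptges*, *Ptgds*, *Hpgd* and the 4 EP receptor genes *Ptger1*, *Ptger2*, *Ptger3* and *Ptger4*. RNA came from kidney cells captured with DBA, a plant lectin that binds collecting duct epithelium. There were 3 groups with 2 libraries each, all labelled Day115: saline-treated WT mice, saline-treated ADPKD mice (Pkd1-/-) and ADPKD mice of the same genotype treated with MMPP, a melanin-like nanoparticle. The paper describes the mice as male and the knockout as tamoxifen-induced through *Cre/Esr1* on a *Pkd1* fl/fl background, with MMPP given intravenously, and the cell types in which Cre acts are not given in the sources used here. Nothing in the labels ties a library to 1 animal or to a pool, so the tests measure only the spread between these libraries.

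Prostaglandins are made from arachidonic acid, which cytosolic phospholipase A2 (*Pla2g4a*) releases from membrane lipids and the cyclooxygenases (*Ptgs1*, constitutive, and *Ptgs2*, inducible) convert to prostaglandin H2. Terminal synthases then form single products, PGE2 by *Ptges* and PGD2 by *Ptgds*, and 15-hydroxyprostaglandin dehydrogenase (*Hpgd*) inactivates PGE2. PGE2 acts on 4 receptors: EP2 and EP4 raise cAMP, EP3 lowers it, and EP1 raises calcium. In the collecting duct PGE2 modulates vasopressin-driven water transport, and cAMP is a driver of cyst fluid secretion and growth.

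The promoters of the cyclooxygenases and of *Ptgds* are shown because the study concerns CREB, which binds the cAMP response element TGACGTCA or its half-site TGACG. Windows of 300 bases, from 250 before to 50 after each RefSeq start (GRCm38.p6), were present for 9 of the 10 genes, as 10 windows since *Pla2g4a* has 2 starts. *Ptger1* was not matched. The stretches below run 5′ to 3′ on the gene's strand from 80 bases before the start to 20 bases after it, and capitals mark the motif matches found, a half-site in *Ptgs2* and an AP-1 motif (TGANTCA) in *Ptgds*. They lie at chr2:36230346-36230445 (plus strand), chr1:150099951-150100050 (plus strand) and chr2:25469730-25469829 (minus strand).
Ptgs1: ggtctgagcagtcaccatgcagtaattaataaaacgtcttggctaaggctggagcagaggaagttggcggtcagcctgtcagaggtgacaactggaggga
Ptgs2: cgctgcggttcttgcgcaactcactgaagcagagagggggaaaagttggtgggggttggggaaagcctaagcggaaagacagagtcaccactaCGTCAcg
Ptgds: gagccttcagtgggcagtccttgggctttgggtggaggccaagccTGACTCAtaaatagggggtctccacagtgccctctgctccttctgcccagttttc

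The full element TGACGTCA was in none of the 10 windows, and it was in 1.79% of all 32851 promoter windows of that length. The half-site TGACG, searched on both strands and contained in the full element, was in 1 window, that of *Ptgs2* at positions 14 to 18 after the start, where the gene's strand reads CGTCA. It was in 20.8% of all windows. The AP-1 motif was in 1 window, that of *Ptgds* at positions -35 to -29, and in 7.81% of all windows. The motifs did not overlap each other in these promoters. A match describes letters and not binding.

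The deposited values are FPKM, fragments scaled to gene length and to sequencing depth, which is meant to make levels comparable between genes. The change of genes from ADPKD to ADPKD+MMPP varied with their transcript structure, as given below, which limits comparison between genes in the treated libraries. Multiplied by gene length, the low values of each library fell on whole reads (98.1% to 98.9% of them), which gave depths of 30.6 to 33.1 M reads for WT and ADPKD and of 10.9 to 11.8 M reads for ADPKD+MMPP. All 60 values of the 10 genes came out whole within 0.02 reads, from 6 reads of *Ptger2* in an ADPKD+MMPP library to 8686 reads of *Ptgs2* in an ADPKD library. Even numbers made up 11 of 20 of these read numbers in WT, 11 of 20 in ADPKD and 19 of 20 in ADPKD+MMPP. Among all low values, odd read numbers made up 35.2% to 37.2% in the WT and ADPKD libraries and 7.18% and 7.64% in ADPKD+MMPP. The treatment and this difference between libraries lie in the same group and cannot be told apart. Summed markers of collecting duct principal cells were 2096 and 2796 FPKM in WT, 2502 and 957 in ADPKD, and 5437 and 5458 in ADPKD+MMPP. In every library 8 of 9 markers stood at 1 FPKM or more. After treatment *Aqp2*, *Aqp3*, *Scnn1g* and *Hsd11b2* were above both ADPKD libraries, and *Aqp4* and *Scnn1b* were below both. Intercalated cell markers summed to 438 and 469 FPKM in WT, 237 and 71.6 in ADPKD, and 609 and 640 in ADPKD+MMPP. *Rhcg* alone gave 420 and 439 FPKM of the treated sums. Against both WT libraries, *Rhcg*, *Foxi1* and *Atp6v0d2* were higher in both treated libraries. *Slc26a4*, *Slc4a9*, *Slc4a1*, *Atp6v1g3* and *Rhbg* were lower, and *Aqp6* overlapped. Summed macrophage markers were 116 and 132 FPKM in WT, 630.5 and 823 in ADPKD, and 1363 and 1413 in ADPKD+MMPP. The list did not move together after treatment, since 5 of its 10 markers (*C1qa*, *C1qb*, *C1qc*, *Lyz2* and *Cd14*) were higher in both treated libraries than in both ADPKD libraries and 4 (*Ptprc*, *Csf1r*, *Adgre1* and *Cd68*) were lower. *Lyz2* went from 188 and 224 to 568 and 565 FPKM, and *Csf1r* from 17.0 and 25.6 to 0.381 and 0.190 FPKM. Summed endothelial markers were 921 and 772 FPKM in WT, 547 and 567 in ADPKD, and 324 and 353 in ADPKD+MMPP, and 7 of 8 (not *Plvap*) were lower in ADPKD than in WT without overlap. Summed interstitial fibroblast markers were 105 and 84.1 FPKM in WT, 153 and 172 in ADPKD, and 163 and 170 in ADPKD+MMPP. Of the 7 markers, 5 were higher in ADPKD than in WT without overlap. *Pdgfrb* went the other way, with 91.3 and 65.6 FPKM in WT, 38.9 and 31.4 in ADPKD, and 1.05 and 0.837 in ADPKD+MMPP. After treatment *Col1a1*, *Col1a2* and *Col3a1* were also above both ADPKD libraries, while *Pdgfra*, *Dcn* and *Lum* were below both. Proximal tubule markers summed to 15334 and 14623 FPKM in ADPKD+MMPP and to no more than 851 FPKM elsewhere. *Kap* alone gave 12822 and 12116 FPKM of the treated sums. *Slc5a12* was lower in both treated libraries than in both ADPKD libraries, *Slc22a8* lay between the latter, and the other markers were higher. *Slc34a1*, at 57.2 and 57.8 FPKM after treatment, was below WT replicate 1 at 67.5. In such bulk preparations fewer cells of a type and less RNA per cell cannot be told apart.

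**Figure D1:**
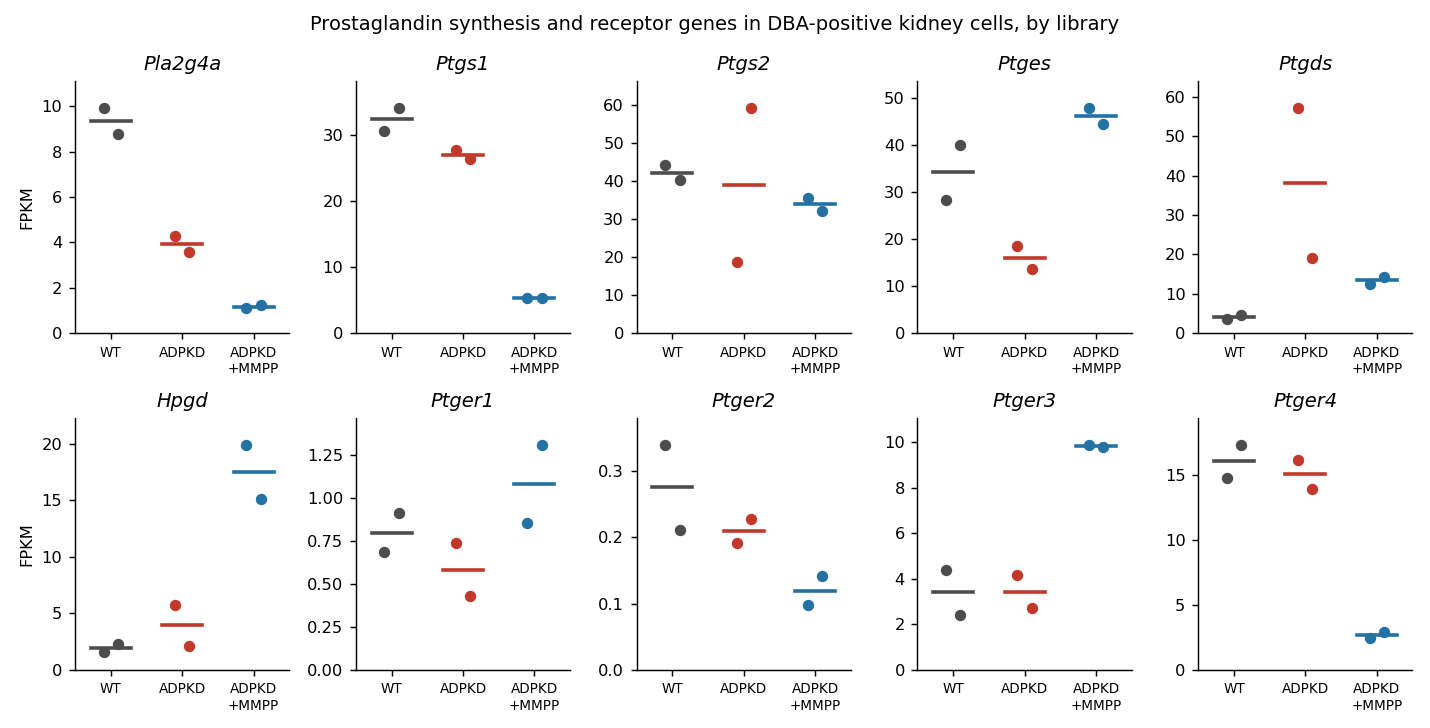
FPKM (linear axis, a separate scale for each gene) of the 10 prostaglandin genes in the 2 libraries of each group, with points for libraries and bars for group means. *Pla2g4a* stepped down from WT to ADPKD to ADPKD+MMPP, *Ptgds* was highest in ADPKD, and the ADPKD libraries lay far apart for *Ptgs2*, with 18.6 and 59.2 FPKM.

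In WT cells *Ptgs2*, *Ptges* and *Ptgs1* had the highest levels of the 10 genes, with means of 42.2, 34.2 and 32.3 FPKM, and the libraries of *Ptges* and *Ptgs1* overlapped. *Ptger4* followed at 16.1 FPKM, then *Pla2g4a* at 9.35, *Ptgds* at 4.04, *Ptger3* at 3.40 and *Hpgd* at 1.95, where *Ptgds* and *Ptger3* overlapped. *Ptger1* and *Ptger2* were lowest, at 0.797 and 0.276 FPKM. In ADPKD cells *Ptgds* moved up to follow *Ptgs2* at 38.2 FPKM, with libraries that overlapped those of *Ptgs2* and *Ptgs1* on either side in the order. In ADPKD+MMPP cells *Ptges* came first at 46.1 FPKM, and *Hpgd*, the inactivating enzyme, came after *Ptgs2* at 17.5 FPKM. The part of transcript structure in this order was not tested.

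Comparison of ADPKD with WT asks what loss of *Pkd1* changed. In ADPKD cells the substrate-releasing *Pla2g4a* and the PGE2 synthase *Ptges* fell and the PGD2 synthase *Ptgds* rose, while no EP receptor gene was called. Calls needed a 1.5-fold difference of FPKM + 1 together with an unadjusted P under 0.05 in limma. The filter of 1 FPKM in 2 libraries was passed by 8 of the 10 genes. Of these 8, 3 were called, 1 higher and 2 lower, against 26.7% of all 14862 tested genes (14.2% higher and 12.5% lower). The libraries of WT and ADPKD did not overlap for 4 of the 8, against 67% of all tested genes. One direction at a time, 1 was higher against 35.5% of all genes and 3 were lower against 31.5%. The median log2 fold change of the 8 was -0.17, beside 0.027 for all tested genes. With 8 genes, neither share is a result about the set.

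*Pla2g4a* (chr1:149829618-149961290, GRCm38) had 9.93 and 8.78 FPKM in WT and 4.3 and 3.58 in the ADPKD libraries. Both ADPKD libraries were lower than both WT libraries. Its log2 fold change was -1.07 ± 0.14 (standard error, n = 2 per group, adjusted p = 0.00571 from limma).

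*Ptges* (chr2:30889471-30929863, GRCm38) had 28.3 and 40.1 FPKM in WT and 18.4 and 13.7 in ADPKD, again without overlap. On the log2 scale it differed by -1.04 ± 0.22 (standard error, n = 2 per group, adjusted p = 0.0218 from limma). Both genes remained called lower under all 18 alternatives of the analysis. Endothelial markers were lower in the same libraries, and their part in either result was not tested. Within WT and within ADPKD, the library with more *Ptges* also had the higher sums of principal and intercalated cell markers. The part of these cells was not tested either.

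*Ptgds* (chr2:25466709-25470046, GRCm38) encodes lipocalin-type PGD synthase, which both makes PGD2 and carries small lipophilic molecules. It had 3.47 and 4.60 FPKM in WT and 57.2 and 19.2 FPKM in ADPKD. Every ADPKD library was above every WT library, but the ADPKD libraries themselves differed widely. The log2 fold change was 2.78 ± 0.48 (standard error, n = 2 per group, adjusted p = 0.0124 from limma), 2.01 without ADPKD replicate 1 and 3.54 without ADPKD replicate 2. Summed macrophage and fibroblast markers were also higher in ADPKD, and the library with less *Ptgds* had the higher sum of both (823 against 630.5 FPKM and 172 against 153 FPKM). Their part in the result was not tested.

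The cyclooxygenases were not called. *Ptgs1* (chr2:36230426-36252272, GRCm38) had 30.6 and 34.0 FPKM in WT and 27.7 and 26.3 in ADPKD, which did not overlap. The log2 fold change was -0.25 with a 95% interval from -0.54 to 0.045 (adjusted p = 0.175 from limma). *Ptgs2* (chr1:150100031-150108227, GRCm38) had 44.1 and 40.3 FPKM in WT, and its ADPKD libraries at 18.6 and 59.2 FPKM lay on either side of both. The difference of -0.33 had an interval from -1.56 to 0.90. It was -1.14, and called, without ADPKD replicate 2, and 0.48 and not called without ADPKD replicate 1, so 1 library set its direction.

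*Hpgd* (chr8:56294585-56321043, GRCm38) had 1.57 and 2.32 FPKM in WT and 5.75 and 2.09 in ADPKD, which overlapped. The change of 0.64 on the log2 scale had an interval from -0.31 to 1.6. Without ADPKD replicate 2 it was 1.21 and was called, and without ADPKD replicate 1 it was 0.082. With *Hpgd* and *Ptgs2* called, 5 of the 8 genes were called without ADPKD replicate 2.

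The receptor genes did not differ beyond their spread. *Ptger4* (chr15:5206661-5244187, GRCm38) had 14.8 and 17.4 FPKM in WT and 16.2 and 14.0 in ADPKD, with a log2 fold change of -0.086 and an interval from -0.46 to 0.29. *Ptger3* (chr3:157566892-157645888, GRCm38) had 4.4 and 2.40 FPKM in WT and 4.17 and 2.70 in ADPKD, with 0.031 and an interval from -0.63 to 0.70. In each group the library with more *Ptger3* also had the higher sum of loop of Henle and distal tubule markers, with 1270 against 491 FPKM in WT and 611 against 192 in ADPKD. Proximal tubule sums had the same order, with 479 against 224 FPKM in WT and 851 against 215 in ADPKD. Principal and intercalated cell sums were lower in ADPKD replicate 2 too. In WT they had the opposite order, with 2096 against 2796 FPKM and 438 against 469 FPKM. The thick ascending limb is a known site of EP3, and the part of these cells in the level was not tested.

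Below the filter, *Ptger1* (chr8:83666678-83672753, GRCm38) had 0.683 and 0.911 FPKM in WT, 0.737 and 0.429 in ADPKD, and 0.853 and 1.31 in ADPKD+MMPP. The level of *Ptger1* is uncertain, since the use of strand in the counting is not given in the sources used here. *Ptger2* (chr14:44988195-45003820, GRCm38) had 0.340 and 0.211 FPKM in WT, 0.192 and 0.228 in ADPKD, and 0.0979 and 0.141 in ADPKD+MMPP. The latter values rest on 6 and 8 reads. With no filter on low values neither gene was called in any of the 3 comparisons.

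**Figure D2:**
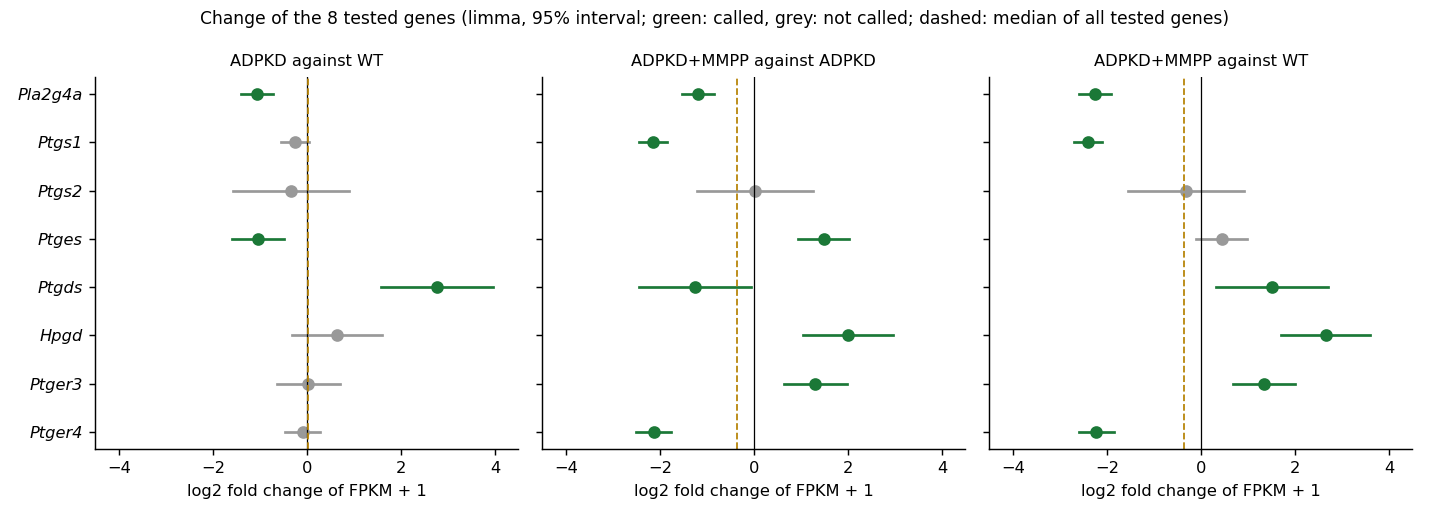
Log2 fold change of FPKM + 1 (horizontal axis) with 95% intervals from limma for the 8 tested genes in the 3 comparisons, green where called and grey where not, with the median of all tested genes dashed. Between ADPKD and WT 3 genes were called, and after MMPP the called genes lay on both sides of 0, from -2.15 for *Ptgs1* to 2.01 for *Hpgd*.

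Comparison of ADPKD+MMPP with ADPKD asks what treatment changed in cystic cells. Here *Ptges*, *Hpgd* and *Ptger3* were called higher and *Ptgs1*, *Ptger4*, *Pla2g4a* and *Ptgds* lower, and *Ptgs2* was not called. These 7 of 8 stand beside 70.9% of all tested genes (27.9% higher and 43% lower), and the libraries of the 7 did not overlap, against 87.8% of all genes. Of them 3 were higher against 36.1% and 4 lower against 51.7%. The median log2 fold change of the 8 was -0.58, beside -0.36 for all tested genes. The latter median went from -0.55 with libraries rescaled to a common sum to 0.10 under quantile normalization, which also turned the share of higher genes among those called from 39.3% to 54.0%. Under these scalings and TMM factors the 7 genes kept their directions.

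*Ptgs1* fell from 27.7 and 26.3 FPKM in the ADPKD libraries to 5.36 and 5.24 in the treated libraries. Its log2 fold change was -2.15 ± 0.12 (standard error, n = 2 per group, adjusted p = 4.61e-05 from limma). *Ptger4*, the cAMP-raising EP4 receptor, fell from 16.2 and 14.0 FPKM to 2.42 and 2.90, by a log2 fold change of -2.13 ± 0.15 (standard error, n = 2 per group, adjusted p = 8.99e-05 from limma). For both genes the treated libraries were also below both WT libraries. Exons of a processed pseudogene on the opposite strand, *Gm15937*, cover 15.3% of the *Ptger4* exon bases.

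*Pla2g4a*, already lower in ADPKD than in WT, went to 1.09 and 1.23 FPKM in the treated libraries. Its log2 fold change against ADPKD was -1.19 ± 0.14 (standard error, n = 2 per group, adjusted p = 0.000519 from limma). Of the 10 genes it was the one called lower in both steps. Its call after treatment was lost under quantile normalization, at -0.54. *Ptgds* had 12.4 and 14.3 FPKM after treatment, below both ADPKD libraries and above both WT libraries. The change of -1.26 ± 0.48 passed the threshold before adjustment and missed it after (adjusted p = 0.0541 from limma), and the call was lost under 13 of the 18 alternatives. Without ADPKD replicate 1 the change was -0.49, and without ADPKD replicate 2 it was -2.02.

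*Ptges* had 47.8 and 44.4 FPKM after treatment, above both ADPKD libraries and both WT libraries. The rise against ADPKD was 1.48 ± 0.22 (standard error, n = 2 per group, adjusted p = 0.00144 from limma). *Hpgd* rose to 19.9 and 15.1 FPKM, by 2.01 ± 0.38 (standard error, n = 2 per group, adjusted p = 0.00413 from limma). *Ptger3*, the cAMP-lowering EP3 receptor, rose to 9.89 and 9.80 FPKM, by 1.31 ± 0.27 (standard error, n = 2 per group, adjusted p = 0.00543 from limma). Loop of Henle and distal tubule markers summed to 217 and 212 FPKM in these libraries, lower than in ADPKD replicate 1 and in both WT libraries. The list did not move together. *Slc12a3*, *Pvalb*, *Cldn16* and *Cldn10* were higher in both treated libraries than in both ADPKD libraries. *Umod* was lower, and *Slc12a1* lay between the ADPKD libraries. The part of the proximal tubule markers, most of them higher in the same libraries, was not tested for *Hpgd* or the other genes.

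*Ptgs2* stood at 35.6 and 32.1 FPKM after treatment, between the ADPKD libraries. The difference from ADPKD, 0.020, had an interval from -1.21 to 1.25 (adjusted p = 0.973 from limma). It was 0.83 without ADPKD replicate 2 and -0.79 without ADPKD replicate 1, and both were called, in opposite directions. No change of *Ptgs2* was therefore detectable against the spread of the ADPKD libraries.

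Among the called genes, the direction of the change after treatment went with the share of exon sequence used by a single annotated transcript. This share was 29.6% for *Ptgs1*, 49.2% for *Ptgds*, 51.1% for *Ptger4* and 55.7% for *Pla2g4a*, all of which were called lower. It was 64.7% for *Ptger3*, 80.7% for *Ptges* and 100% for *Hpgd*, all of which were called higher, while *Ptgs2*, at 95%, was not called. Over all 12375 protein-coding genes in the fit, the treatment change followed the same share with a Spearman rho of 0.649, against 0.0451 for the change between ADPKD and WT. Genes are not independent replicates. Genes whose share was near that of *Ptgs1* changed by -1.31 in the median, and genes near *Ptges* by 0.82. Near *Hpgd* and *Ptgs2* this median was 1.09.

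With each library centred on the median of protein-coding genes of similar share, 4 of the 8 genes were called after treatment, against 58.4% of the protein-coding genes. *Ptger4* at -1.48 was called lower, and *Ptger3* at 1.29, *Hpgd* at 0.90 and *Ptges* at 0.67 were called higher. *Ptgs1* at -0.43, *Pla2g4a* at -0.53 and *Ptgds* at -0.60 lost their calls, and *Ptgs2* was at -1.09 and not called. This centring used median levels. Taking the median change of genes of similar share from each change left -0.85 for *Ptgs1*, -0.89 for *Pla2g4a* and -0.78 for *Ptgds*. These are beyond 1.5-fold and were not tested, so the size left depended on how the centring was done. Between ADPKD and WT the centred values were -1.07 for *Pla2g4a*, -1.05 for *Ptges* and 2.77 for *Ptgds*, each still called.

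**Figure D3:**
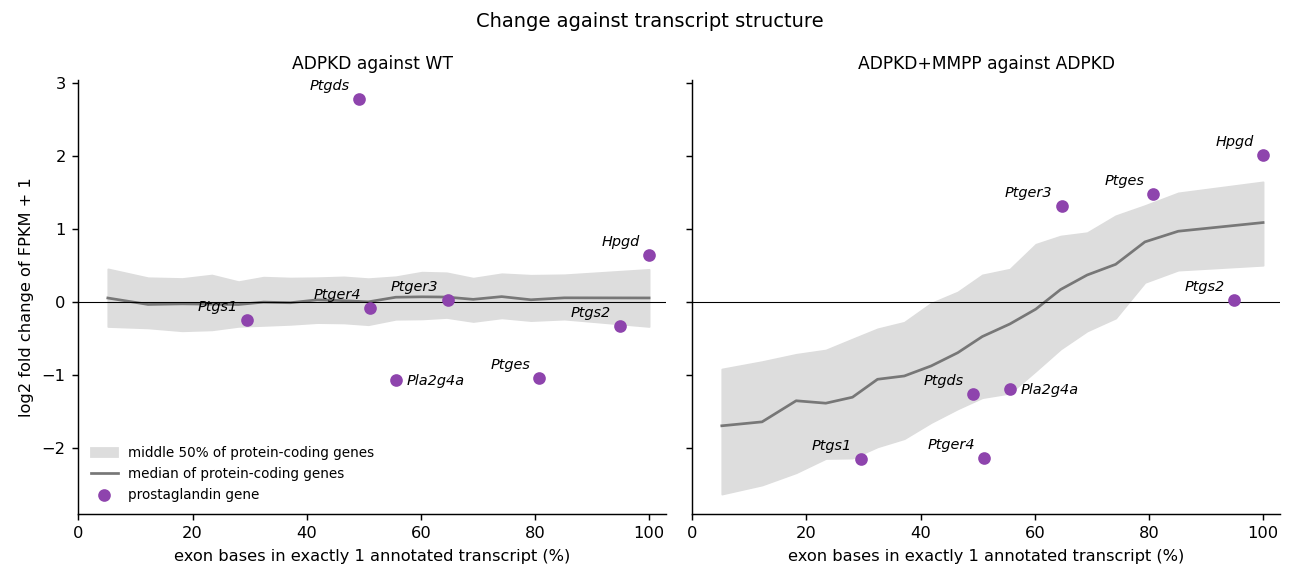
Log2 fold change of FPKM + 1 against the percentage of exon sequence used by 1 transcript alone, with the 8 genes as points and the median and middle 50% of protein-coding genes as line and band. The band is flat between ADPKD and WT and climbs after MMPP, with medians of -1.31 near *Ptgs1* and 1.09 near *Hpgd*. After treatment *Ptger3*, *Hpgd* and *Ptges* lie above the band, *Ptger4* and *Ptgs2* below it, and *Ptgs1* at its lower edge.

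Comparison of ADPKD+MMPP with WT asks how far treated cells were from normal ones. Of the 8 genes 6 were called, 3 higher and 3 lower, against 73.9% of all tested genes (30.1% higher and 43.8% lower), and the libraries of all 8 were apart, against 91.9%. Of them 4 were higher against 38.9% and 4 lower against 53%. The median log2 fold change of the 8 was 0.066, beside -0.36 for all tested genes. *Hpgd* was higher by 2.65 ± 0.38 (standard error, n = 2 per group, adjusted p = 0.00121 from limma), *Ptgds* by 1.52 ± 0.48 (adjusted p = 0.0277) and *Ptger3* by 1.34 ± 0.27 (adjusted p = 0.00469). *Ptgs1*, *Pla2g4a* and *Ptger4* were called lower, at -2.40, -2.26 and -2.22. Centred by transcript structure, *Ptgs1* was at -0.73 and *Hpgd* at 1.40, both still called, and *Ptgs2* was called lower at -1.56. As deposited, *Ptges*, at 0.44 with an interval from -0.10 to 0.99, and *Ptgs2*, at -0.31 with an interval from -1.54 to 0.92, were not called. The *Ptgds* call was lost under 5 alternatives, 4 of which left out 1 WT or 1 treated library. This comparison shares its treated libraries with the one against ADPKD, so the calls in both are not independent.

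Ratios within a library do not depend on the scaling of that library, and with 2 libraries per group they are given without a test. The PGE2 synthase *Ptges* exceeded the inactivating *Hpgd* by 18.0 and 17.3 times in WT, by 3.20 and 6.52 times in ADPKD, and by 2.40 and 2.94 times in ADPKD+MMPP. The WT ratios were above those of all other libraries, and the ratios of ADPKD and ADPKD+MMPP did not overlap. *Ptges* was 8.14 and 8.70 times *Ptgds* in WT, 0.322 and 0.712 times in ADPKD, and 3.85 and 3.10 times in ADPKD+MMPP. Of these 2 genes, *Ptgds* was the higher in the ADPKD libraries alone among the 6. Other PGE synthase genes are not part of this ratio.

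The level of *Ptgs2* was 1.44 and 1.18 times that of *Ptgs1* in WT, 0.671 and 2.25 times in ADPKD, and 6.63 and 6.13 times in ADPKD+MMPP. After treatment *Ptgs1* was called lower and *Ptgs2* was not called. Ratios between genes may vary with transcript structure in the treated libraries. Genes with a share near that of *Ptgs2* changed by 1.09 in the median after treatment, and genes near *Ptgs1* by -1.31 on the log2 scale. This gap is in the direction of the higher ratio after treatment, and its part was not tested. For *Ptger3* and *Ptger4* these medians were 0.17 and -0.47, for *Ptges* and *Ptgds* 0.82 and -0.47, and for *Ptges* and *Hpgd* 0.82 and 1.09. The ratios of *Ptger3* to *Ptger4* and of *Ptges* to *Ptgds* were higher in treated than in ADPKD libraries, the direction of these gaps. The part of the gaps was not tested. Of the summed FPKM of the 4 EP receptor genes, *Ptger4* made up 73.2% and 83.1% in WT and 76.0% and 80.6% in ADPKD, which overlapped. In ADPKD+MMPP it made up 18.3% and 20.5%, and *Ptger3* made up 74.6% and 69.3%. The sum itself was 20.2 and 20.9 FPKM in WT, 21.3 and 17.3 in ADPKD, and 13.3 and 14.1 in ADPKD+MMPP. *Ptger3* stood at 4.08 and 3.38 times *Ptger4* after treatment, and at 0.138 to 0.298 times elsewhere.

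**Figure D4:**
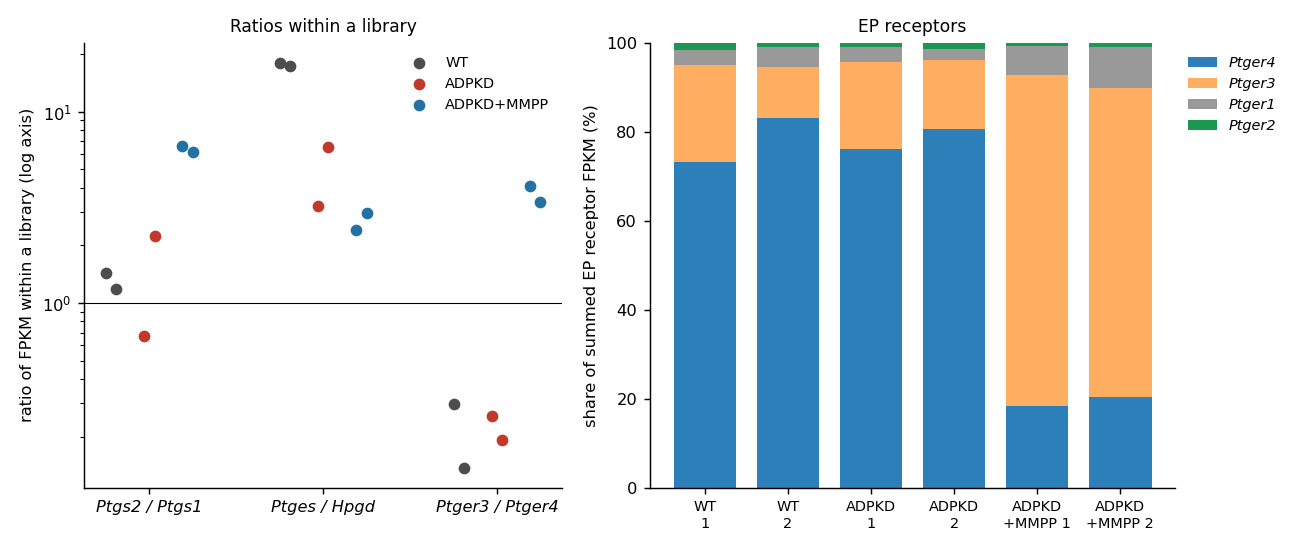
Left, ratios of FPKM within each library on a log axis, with a point for each library coloured by group. Right, the share of each EP receptor gene in the summed EP receptor FPKM of each library, where *Ptger4* holds 73.2% to 83.1% in the WT and ADPKD libraries and *Ptger3* holds 69.3% and 74.6% in the treated ones.

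A list of 47 other genes of eicosanoid synthesis, transport, breakdown and signalling gives the surroundings of the pathway. Of these, 30 passed the filter, and 3 (*Ptgdr*, *Pla2g10* and *Pla2g2a*) were listed at 0 in all 6 libraries. Between ADPKD and WT 7 were called higher, 6 lower and 17 were not called, and the median change was 0.13 on the log2 scale. After treatment 10 were called higher and 12 lower against ADPKD, with a median of -0.35 beside the -0.36 of all tested genes. Against WT 12 were called higher and 13 lower. The numbers called, 13, 22 and 25 of 30, stand beside 26.7%, 70.9% and 73.9% of all tested genes.

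Among prostanoid receptor genes other than the EP receptors, all 3 that passed the filter were called lower in ADPKD, against 12.5% of all tested genes. These genes were the thromboxane receptor *Tbxa2r*, the PGF receptor *Ptgfr* and the prostacyclin receptor *Ptgir*. They were chosen for mention after their values were seen, so their share is no result about the receptors. *Tbxa2r* had 14.4 and 11.2 FPKM in WT, 3.06 and 0.488 in ADPKD, and 0.530 and 0.382 in ADPKD+MMPP. *Ptgfr* had 3.31 and 3.11 FPKM in WT, 1.63 and 0.239 in ADPKD, and 8.07 and 7.61 in ADPKD+MMPP. For both *Tbxa2r* and *Ptgfr* the ADPKD libraries were below the WT libraries and differed widely from each other. *Ptgir* had 7.01 and 5.18 FPKM in WT, 2.57 and 3.62 in ADPKD, and 0.152 and 0.385 in ADPKD+MMPP. Endothelial markers were lower in ADPKD too, and their part was not tested.

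Among the 9 terminal synthases and related reductases, all tested, 2 were called higher in ADPKD and none lower, against 14.2% and 12.5% of all tested genes, so that this is no result about the synthases. They were the haematopoietic PGD synthase *Hpgds*, which had 1.42 and 0.829 FPKM in WT and 5.39 and 4.18 in ADPKD, and the prostacyclin synthase *Ptgis*, which had 1.41 and 1.31 FPKM in WT and 3.96 and 5.20 in ADPKD. These were also chosen after their values were seen, as was *Ptges3*. The further PGE synthase genes *Ptges3* and *Ptges2* were not called in ADPKD. *Ptges3* had 42.6 and 44.0 FPKM in WT and 43.7 and 44.2 in ADPKD, and *Ptges2* had 5.05 and 5.82 in WT and 6.15 and 4.03 in ADPKD. *Hpgds* thus rose beside *Ptgds*, and its log2 fold change was 1.45 (adjusted p = 0.00566 from limma). Of 5 mast cell markers, 3 in WT and 4 in ADPKD were at 0, while summed macrophage and fibroblast markers were higher as given above. Their part was not tested.

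The transporters moved apart in ADPKD. *Slco2a1*, which carries prostaglandins into cells for breakdown, had 38.3 and 34.2 FPKM in WT, 12.4 and 11.3 in ADPKD, and 8.19 and 8.12 in ADPKD+MMPP. The log2 fold change in ADPKD was -1.53 (adjusted p = 0.00308 from limma). Summed endothelial markers stepped down over the 3 groups in the same order, and their part was not tested. *Abcc4*, which exports prostaglandins and cAMP, had 9.61 and 9.49 FPKM in WT, 16.8 and 16.4 in ADPKD, and 0.504 and 0.316 in ADPKD+MMPP, and was called higher in ADPKD by 0.74 and lower after treatment by -3.65.

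Other list members with high levels were *Anxa1*, *Pla2g7*, *Ptgr1* and *Ptgfrn*, all called higher in ADPKD. *Anxa1*, an inhibitor of phospholipase A2 activity, had 77.5 and 89.9 FPKM in WT, 253 and 331 in ADPKD, and 15.9 and 18.1 in ADPKD+MMPP. *Ptgr1*, which reduces inactivated prostaglandins further, had 1.77 and 1.35 FPKM in WT, 6.93 and 4.54 in ADPKD, and 19.3 and 19.7 in ADPKD+MMPP. *Acsl4*, which activates arachidonic acid for storage in lipids, and *Cbr1*, a carbonyl reductase that acts on PGE2, were not called in ADPKD and were called lower after treatment, at -2.82 and -1.78. *Akr1b3*, *Cbr3*, *Ptges2* and *Lta4h* were not called in ADPKD and were called higher after treatment, between 0.62 and 1.67.

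**Figure D5:**
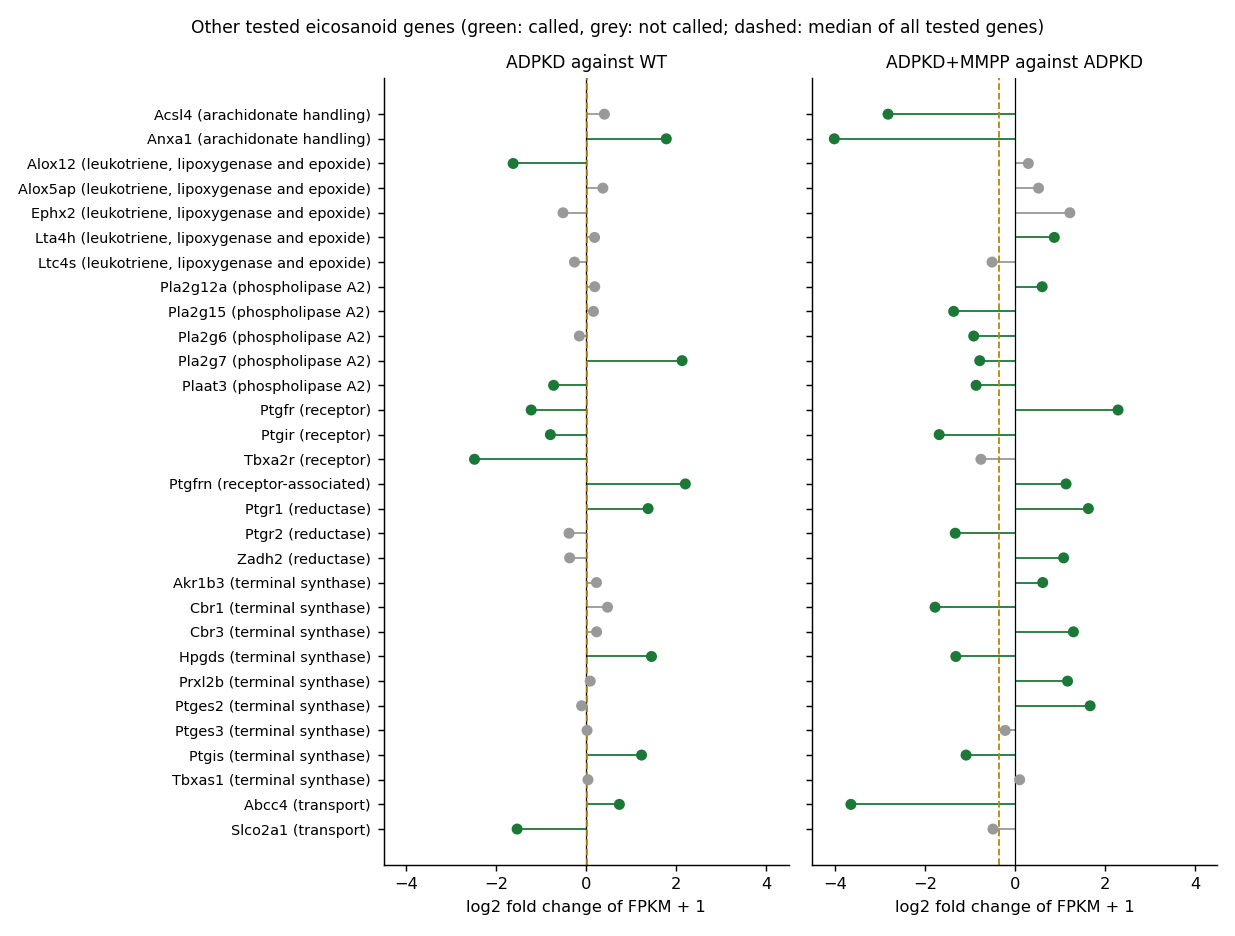
Log2 fold change of FPKM + 1 for the 30 tested genes of the wider eicosanoid list, labelled with their roles, green where called and grey where not, with the median of all tested genes dashed. Called genes lie on both sides of 0 in both comparisons, with *Anxa1* at 1.78 in ADPKD and -4.01 after treatment.

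By the root mean square difference of centred log2(FPKM + 1) over the 6 libraries, the tested genes most like *Ptgs1* were *Ezh1* at 0.046, *Tcf12* at 0.059 and *Tmem62* at 0.061. Those most like *Ptges* were *Vtcn1* at 0.099, *Ccdc92* at 0.13 and *Lyrm9* at 0.13. *Ptgs2* had no neighbour closer than *Bmp2* at 0.24. With 14861 genes compared over 6 libraries, close profiles are a description.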

How the data were processed

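RNA-seq was performed by the authors on DBA-positive kidney cells of 3 groups with 2 libraries each. Per the labels, reads were aligned to mm10 with HISAT2 2.1.0 and counted with featureCounts 1.6.0, and the authors deposited FPKM for each library. The annotation and the conversion to FPKM are not given in the sources used here. Positions, exon lengths and transcripts came from GENCODE vM21, in which 53186 of the 55367 symbols had 1 match. FPKM times exon length gave whole reads and depth.

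A gene entered the test with 1 FPKM or more in 2 or more libraries, which 14862 did. The test was limma 3.58.1 (R 4.3.3) on values of log2(FPKM + 1), as 1 fit to the 6 libraries, with Benjamini-Hochberg adjustment. Fold changes on this scale understate the change of low genes. Calls used the study's thresholds of 1.5-fold and P under 0.05. Intervals are 95% intervals from limma. DESeq2, which the authors used on counts, was not used on FPKM. The 12375 tested protein-coding genes were also centred within bins of transcript structure, where 20 bins by quantile came to 18 because of ties. The genes, lists and tests were chosen with earlier results of these data known. The genes named were the 10 themselves, the called genes of highest level in the wider list (12 by mean FPKM, with a mean of at least 5 FPKM in at least 1 group), and the nearest profiles of the 3 highest genes. Outside this rule, *Tbxa2r*, *Ptgfr*, *Ptgir*, *Hpgds*, *Ptgis*, *Ptges3*, the genes listed at 0 and single cell type markers were named after their values were seen. Promoter sequences are RefSeq's, of GRCm38.p6. One annotation overlap is not reported here.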

Additional observations from a re-analysis of the deposited data

How the results depend on the processing

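The 18 alternatives covered the pseudocount, filters on low values, scaling, variance trend, the libraries in the fit, thresholds, a replicate block, transcript structure and leaving out each library. The number of prostaglandin genes called in ADPKD against WT stayed at 3 except when libraries were left out, where it went from 3 to 5. In ADPKD+MMPP against ADPKD it was 4 instead of 7 with centring by transcript structure, 5 under quantile normalization, 6 with a pseudocount of 0.1, no filter, TMM factors, the compared groups only, a replicate block or adjusted p, and 6 to 8 when libraries were left out. In ADPKD+MMPP against WT it ranged from 5 to 7. Directions turned in the following cases, all for differences that were not called with all libraries as deposited. *Ptger3* in ADPKD against WT was at -0.037 with a common FPKM sum and at -0.0039 under quantile normalization, and from -0.30 to 0.36 with libraries left out. *Ptger4* in the same comparison went from -0.20 to 0.023 with libraries left out, and *Ptgs2* from -1.14 to 0.48. *Ptgs2* in ADPKD+MMPP against ADPKD was at -0.28, -0.12 and -1.09 with a common sum, quantile normalization and centring by transcript structure, and from -0.79 to 0.83 with libraries left out. *Ptges* in ADPKD+MMPP against WT was at -0.38 with that centring. The cause was not tested.

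Same-numbered replicates did not deviate together in all pairs of groups (correlations over genes of 0.13, -0.0080 and 0.014), so the numbers were not taken as pairs. With a replicate block 3, 6 and 6 prostaglandin genes were called in the 3 comparisons, and 13, 23 and 25 genes of the wider list. With a single library left in a group, that library is assumed to vary like the other groups. *Ptger2*, at 6 and 8 reads in the treated libraries, is limited by depth.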
